A study of Mus musculus with 6 samples.

Results

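The genes described here handle vitamin A, or belong to the aldehyde dehydrogenase family, some of whose members make retinoic acid from it. There were 9 of them, chosen by name, in a table of 55426 features: Rbp4, Lrat, Stra6, Dhrs3, Aldh1a1, Aldh1a2, Aldh1a3, Aldh1a7 and Crabp2. All 9 were found by their Ensembl identifiers, and 7 passed a filter on low counts and were tested. RNA was sequenced from primary pancreatic stellate cells (PSCs) of wild-type C57BL/6 mice, isolated at 8 to 12 weeks of age and used at low passage. In every sample the PSCs sat in Matrigel in a transwell insert above organoids of mT3, a cell line from a primary pancreatic ductal adenocarcinoma (PDAC) of a genetically engineered mouse. The groups were normoxia, 3 samples kept at 21% O2 for 48 h, and hypoxia, 3 samples kept at 1% O2 for the same time. No PSCs cultured without organoids were analysed here, so each value belongs to the coculture.

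Quiescent stellate cells of pancreas and liver store vitamin A as retinyl esters in lipid droplets, and lose these stores when they turn into matrix-producing fibroblasts. Retinol travels in blood bound to the carrier Rbp4, enters cells through the receptor Stra6 and is esterified for storage by Lrat. Stored retinol is released, oxidised to retinal, which Dhrs3 can reduce back to retinol, and oxidised further to retinoic acid by Aldh1a1, Aldh1a2 and Aldh1a3. Crabp2 hands retinoic acid to its nuclear receptors, and enzymes of the Cyp26 family break it down. Aldh1a7 is a rodent gene that arose as a copy of Aldh1a1, and whether it makes retinoic acid was not tested here.

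Aldh1a1 and Aldh1a7 lie near each other on chromosome 19 of GRCm38, at 20492715 to 20643465 on the plus strand and 20692953 to 20727562 on the minus strand. Their longest open reading frames, of 1506 bases each in the GENCODE transcripts, were identical at 1387 of 1510 aligned positions (91.9%), against 67.9% to 69.9% for every other pair among the 4 Aldh1a genes. RefSeq promoter windows on GRCm38.p6, from 250 bases before to 50 after a transcription start, were found for 7 of the 9 genes, in 14 windows, since several genes have more than 1 start. Aldh1a3 and Crabp2 had no window in the table. The window at the second start of Aldh1a1 shared 233 of 322 aligned positions (72.4%) with that of Aldh1a7. The window at the first start of Aldh1a1 shared 53.9% with it. Neither that window nor those of Rbp4 and Dhrs3, which rose at 1% O2, are printed. Windows of 3 genes are printed, of which Aldh1a1 and Aldh1a7 fell at 1% O2 and Aldh1a2 rose. They are the plus strand of chr19:20601718-20602017 for Aldh1a1, the minus strand of chr19:20727507-20727806 for Aldh1a7 and the plus strand of chr9:71215539-71215838 for Aldh1a2. Capitals mark the octamer ATGCAAAT and ACGTG, the core of the site bound by hypoxia-inducible factors, each searched on both strands (the reverse complement of ACGTG reads CACGT).
Aldh1a1: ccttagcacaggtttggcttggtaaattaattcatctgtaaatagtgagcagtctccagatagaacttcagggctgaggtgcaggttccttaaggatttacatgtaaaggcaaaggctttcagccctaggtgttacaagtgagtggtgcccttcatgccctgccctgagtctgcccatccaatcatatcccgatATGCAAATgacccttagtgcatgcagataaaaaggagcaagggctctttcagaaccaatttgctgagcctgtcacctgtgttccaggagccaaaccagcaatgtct
Aldh1a7: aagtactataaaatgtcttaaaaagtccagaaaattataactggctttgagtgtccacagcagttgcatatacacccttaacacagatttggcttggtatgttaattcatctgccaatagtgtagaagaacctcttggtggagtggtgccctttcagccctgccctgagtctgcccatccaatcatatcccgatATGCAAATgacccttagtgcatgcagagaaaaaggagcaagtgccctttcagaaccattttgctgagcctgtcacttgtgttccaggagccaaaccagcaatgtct
Aldh1a2: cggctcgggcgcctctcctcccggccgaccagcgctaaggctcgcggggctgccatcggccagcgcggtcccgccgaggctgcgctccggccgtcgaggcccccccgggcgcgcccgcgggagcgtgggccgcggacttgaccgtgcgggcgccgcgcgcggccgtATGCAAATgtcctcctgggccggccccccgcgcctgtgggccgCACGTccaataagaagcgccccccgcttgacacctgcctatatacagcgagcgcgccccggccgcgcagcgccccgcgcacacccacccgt
The octamer was in these 3 windows and in none of the other 11, and in 1.74% of the 32851 promoter windows of the table. It was searched after the sequences had been read. ACGTG was in the window of Aldh1a2 and in 1 of the 2 windows of Rbp4, and in 19.6% of all windows. The half-sites AGGTCA and GGTTCA of retinoic acid receptors, found in 16.3% and 10.4% of all windows, were in none of the 14. A match of letters is not a bound site, and a window without one says nothing of the factor.

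The libraries held between 24749601 and 31925054 counts. At these depths 3 counts, taken as the smallest amount told from none, were 0.0943 to 0.122 CPM (counts scaled to library size, with edgeR's TMM factors). The 10 genes fixed as a check of hypoxia were higher at 1% O2 in all 10 cases. All 9 fibroblast markers were tested, 2 were higher and 2 were lower, and their summed level, led by the collagens Col3a1 and Col1a1, was 27586 to 34737 CPM in normoxia and 29324 to 34169 CPM in hypoxia. Of 9 stellate cell markers 7 were tested, and 1 was higher (Nes, log2 fold change 1.01, SE 0.09). Another 2 were lower (Fabp4, -3.55, SE 0.36, which is also on the adipocyte list, and Ngfr, -1.50, SE 0.22). The remaining 4, Vim (0.40, SE 0.06), Plin2 (-0.06, SE 0.09), Des (-0.54, SE 0.14) and Hand2 (-0.46, SE 0.06), were not called. Over all tested genes 18.9% were higher and 15.3% lower. Gfap, a stellate cell marker that was not tested, had 3, 0 and 0 counts in normoxia and 0 in every hypoxic sample. The labels do not say whether the samples came from separate mice or cultures, so the p-values below measure the spread between these samples, which may be technical.

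Of the 7 tested genes, 3 were higher at 1% O2 (Rbp4, Dhrs3 and Aldh1a2), 2 were lower (Aldh1a1 and Aldh1a7), and 2 were not called (Aldh1a3 and Crabp2). A gene was called where its fold change passed 1.5 and the quasi-likelihood test of edgeR gave an adjusted p under 0.05, corrected over all 16207 genes tested. By that rule 34.2% of all tested genes were called, 18.9% higher and 15.3% lower. A call was therefore common in this contrast, and what differed widely between the retinoid genes was the size of the change. Among tested genes in order of log2 fold change, Aldh1a7 was the 7th and Aldh1a1 the 250th from the most lowered, while Rbp4, Aldh1a2 and Dhrs3 were 2381st, 3094th and 3222nd from the most raised. Hypoxic and normoxic samples did not overlap in 4 of the 7, against 68.9% of all tested genes.

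**Figure D1:**
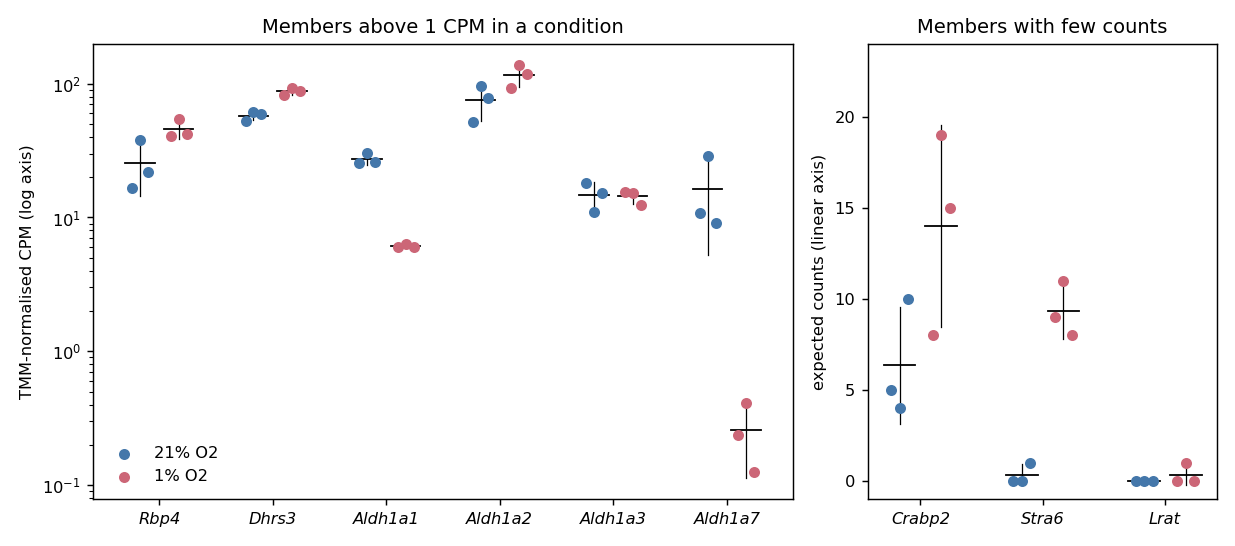
Left, TMM-normalised CPM of 6 genes on a log axis; right, expected counts of 3 sparse genes on a linear axis. Points are samples, 3 at 21% O2 and 3 at 1% O2, with the mean as a horizontal bar and 1 SD as a vertical line. On the left, Aldh1a7 and Aldh1a1 separate most between the conditions, and the samples of Aldh1a3 overlap. On the right, Stra6 has 0, 0 and 1 counts at 21% O2 and 9, 11 and 8 at 1% O2. Lrat is at or near 0 in every sample.

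Among the genes of retinol transport, Rbp4 (ENSMUSG00000024990; chromosome 19, 38116629 to 38125281, minus strand) had 434, 1002 and 536 counts in normoxia and 1042, 1704 and 1339 in hypoxia. In CPM these were 16.7, 38.0 and 21.7 against 40.9, 54.4 and 42.1. All hypoxic samples lay above all normoxic ones, although normoxia replicate 2 came close to the lowest hypoxic sample. The mean was 25.5 ± 11.1 CPM in normoxia and 45.8 ± 7.46 CPM in hypoxia (SD, n = 3 each), a 1.80-fold increase with a log2 fold change of 0.84 (SE 0.25, edgeR adjusted p = 0.0163). The call rested on single libraries, since the edgeR adjusted p was 0.0650 without normoxia replicate 3 and 0.0634 without hypoxia replicate 2, with log2 fold changes of 0.74 and 0.70.

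Stra6 (ENSMUSG00000032327; chromosome 9, 58063788 to 58153996, plus strand), the membrane receptor that takes up retinol from Rbp4, was nearly silent in normoxia. It had 0, 0 and 1 counts there and 9, 11 and 8 counts in hypoxia. The conditions did not overlap, and each hypoxic sample was above the limit of 3 counts. Pooled over samples, 1 count against 28 gave a CPM ratio of 24.3 with a 95% counting interval from 4.02 to 994. Stra6 stayed below the filter on low counts, so it has no place among the tested genes, and its level remained under 0.4 CPM in every sample. With no filter on low counts edgeR gave it an adjusted p of 0.00115.

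Lrat (ENSMUSG00000028003; chromosome 3, 82892579 to 82903973, minus strand), which makes the retinyl esters that stellate cells store, was not detected in any normoxic sample. In hypoxia it had 0, 1 and 0 counts. Both conditions were under the limit of 3 counts per library, so no fold change is given and a difference was not detectable at this depth. Crabp2 (ENSMUSG00000004885; chromosome 3, 87948666 to 87953376, plus strand), the carrier of retinoic acid to its receptors, had 5, 4 and 10 counts in normoxia and 8, 19 and 15 in hypoxia. The conditions overlapped, and the log2 fold change of 0.91 (SE 0.45) did not pass the test (edgeR adjusted p = 0.106). Without normoxia replicate 3, which held 10 of the 19 normoxic counts, it was 1.42 (edgeR adjusted p = 0.0416).

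Dhrs3 (ENSMUSG00000066026; chromosome 4, 144892827 to 144928209, plus strand), the reductase that returns retinal to retinol, had the tightest replicates of the raised genes. Its counts were 1370, 1606 and 1452 in normoxia and 2094, 2887 and 2788 in hypoxia. These are 52.7, 61.0 and 58.9 CPM against 82.2, 92.1 and 87.6 CPM, with a wide gap between the conditions. The mean was 57.5 ± 4.27 CPM in normoxia and 87.3 ± 4.95 CPM in hypoxia (SD, n = 3 each), with a log2 fold change of 0.60 (SE 0.07, edgeR adjusted p = 7.62e-05). The fold change of 1.52 lay just above the minimum of 1.5, and the log2 value fell under it, to 0.54 and 0.56, without normoxia replicate 1 or hypoxia replicate 2.

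Aldh1a7 (ENSMUSG00000024747; 13 exons) showed the largest change among the 7 tested genes. It had 279, 765 and 224 counts in normoxia and 6, 13 and 4 in hypoxia. Every hypoxic sample was far below every normoxic sample, and normoxia replicate 2 stood well above the other normoxic samples. The mean fell from 16.3 ± 11.1 to 0.259 ± 0.146 CPM (SD, n = 3 each), and the fit of edgeR gave a 61.8-fold decrease, a log2 fold change of -5.95 (SE 0.62, edgeR adjusted p = 4.12e-05). Without normoxia replicate 2 the log2 fold change was -5.24 (edgeR adjusted p = 1.06e-06). In RNA of whole cultures such as these, fewer cells of a type and less RNA per cell cannot be told apart.

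Aldh1a1 (ENSMUSG00000053279), the main cytosolic retinal dehydrogenase of many tissues, fell as well, with far less spread between samples. Its counts were 662, 804 and 638 in normoxia and 152, 199 and 192 in hypoxia. In CPM these were 25.5, 30.5 and 25.9 against 5.97, 6.35 and 6.03, so the hypoxic samples were nearly equal. The mean fell from 27.3 ± 2.80 to 6.12 ± 0.204 CPM (SD, n = 3 each), 4.46-fold lower, with a log2 fold change of -2.16 (SE 0.10, edgeR adjusted p = 2.8e-07).

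Because RSEM divides reads that fit several genes by an estimate, the values of this similar pair are less certain than those of the other genes. Of the 1992 stretches of 75 bases in the Aldh1a7 transcript, 50 (2.51%) also occur in transcripts of Aldh1a1, and of its 1917 stretches of 150 bases, 0 do. Summed over both genes, the counts were 941, 1569 and 862 in normoxia and 158, 212 and 196 in hypoxia, a log2 fold change of -2.77 (SE 0.21, edgeR adjusted p = 5.26e-06). The pair fell together whichever gene the shared reads belong to. The ratio between them also changed: there were 42.1, 95.1 and 35.1 Aldh1a7 counts for every 100 Aldh1a1 counts in normoxia, and 3.95, 6.53 and 2.08 in hypoxia. These ratios did not overlap, and the exact permutation test of their log2 values, two-sided with n = 3 each, gave p = 0.1, the smallest that 3 samples against 3 allow.

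Aldh1a2 (ENSMUSG00000013584; chromosome 9, 71215789 to 71296243, plus strand), the retinal dehydrogenase that makes most retinoic acid in the embryo, moved in the opposite direction. It had 1336, 2519 and 1938 counts in normoxia and 2377, 4322 and 3736 in hypoxia. In CPM these were 51.4, 95.6 and 78.6 against 93.3, 138 and 117, and the conditions overlapped, normoxia replicate 2 being above hypoxia replicate 1. The mean was 75.2 ± 22.3 CPM in normoxia and 116 ± 22.3 in hypoxia (SD, n = 3 each), with a log2 fold change of 0.63 (SE 0.21, edgeR adjusted p = 0.0248). This call was lost in 4 of the 6 fits that left out 1 sample. The log2 fold change was 0.41 without normoxia replicate 1, and the edgeR adjusted p was 0.0564 without normoxia replicate 3, 0.0968 without hypoxia replicate 2 and 0.0735 without hypoxia replicate 3. DESeq2 gave the same log2 fold change with an adjusted p of 0.0533.

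Aldh1a2 is also known from mesothelial cells, which cover the organs of the abdomen. Of 10 mesothelial markers 2 could be tested, Wt1 and Krt19, and both were higher at 1% O2, as 18.9% of all tested genes were. The summed level of the 10 was 22.9 to 30.7 CPM in normoxia and 61.3 to 65.7 CPM in hypoxia, nearly all of it Wt1 and Krt19, the latter also on the epithelial list. The other 8 had too few counts to be tested. Among these, Msln had 2, 8 and 8 counts against 0, 4 and 3, Upk3b 2, 14 and 16 against 0, 6 and 6, and Bnc1 1, 28 and 26 against 1, 2 and 5. The part of such cells in the level of Aldh1a2 was not tested.

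Aldh1a3 (ENSMUSG00000015134; chromosome 7, 66390890 to 66427517, minus strand), the third retinal dehydrogenase of the family, had 471, 291 and 378 counts in normoxia and 396, 478 and 396 in hypoxia. Its level was 14.8 ± 3.57 CPM against 14.4 ± 1.71 CPM (SD, n = 3 each), the samples overlapped, and the log2 fold change was -0.04 (SE 0.17, edgeR adjusted p = 0.837).

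Per kilobase of exon, Aldh1a2 was the most abundant of the 9 genes in both conditions, at 33.2 ± 9.84 CPM per kb in normoxia and 51.3 ± 9.85 in hypoxia (SD, n = 3 each). In normoxia Dhrs3 (19.7 ± 1.46 CPM per kb), Rbp4 (19.0 ± 8.30), Aldh1a7 (7.88 ± 5.36), Aldh1a1 (5.53 ± 0.566) and Aldh1a3 (3.21 ± 0.773) followed. The ranges of Dhrs3 and Rbp4, of Rbp4 and Aldh1a7, and of Aldh1a7 and Aldh1a1 overlapped there, so these neighbours are not ordered beyond their spread. In hypoxia Rbp4 (34.1 ± 5.55 CPM per kb) and Dhrs3 (29.8 ± 1.69), whose ranges overlapped, came next, and then Aldh1a3 (3.12 ± 0.371) and Aldh1a1 (1.24 ± 0.0413). Aldh1a7 went from the fourth place to below Crabp2, with 0.125 ± 0.0706 CPM per kb against 0.351 ± 0.111 for Crabp2. Stra6 and Lrat were last in both conditions.

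The summed level of the 4 Aldh1a genes was 37.0, 64.9 and 47.7 CPM per kb in normoxia and 45.9, 65.7 and 55.8 in hypoxia, which overlapped (exact permutation test, two-sided, n = 3 each, p = 0.7). The make-up of that sum differed. Aldh1a2 supplied 61.4%, 65.1% and 72.8% of it in normoxia and 89.8%, 92.7% and 92.9% in hypoxia. Aldh1a1 went from 11.5% ± 2.25 to 2.26% ± 0.343, Aldh1a7 from 14.98% ± 6.28 to 0.221% ± 0.101 and Aldh1a3 from 7.09% ± 3.46 to 5.73% ± 1.39 (SD, n = 3 each). The shares of Aldh1a2, Aldh1a1 and Aldh1a7 did not overlap between conditions, each with the smallest exact permutation p possible, 0.1, while those of Aldh1a3 did (exact permutation p = 0.7). With the longest transcript as length, which shortens Aldh1a1 most, the mean share of Aldh1a2 was 57.9% in normoxia and 87.9% in hypoxia, and that of Aldh1a1 was 20.9% and 4.53%. On that length the mean level of Aldh1a1 in normoxia, 11.6 CPM per kb, was above the 7.88 of Aldh1a7, with overlapping ranges, and the ranges of Aldh1a2 and Dhrs3 in normoxia and of Aldh1a2 and Rbp4 in hypoxia overlapped, as did those of Aldh1a7 with Aldh1a3 in normoxia and with Stra6 in hypoxia.

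**Figure D2:**
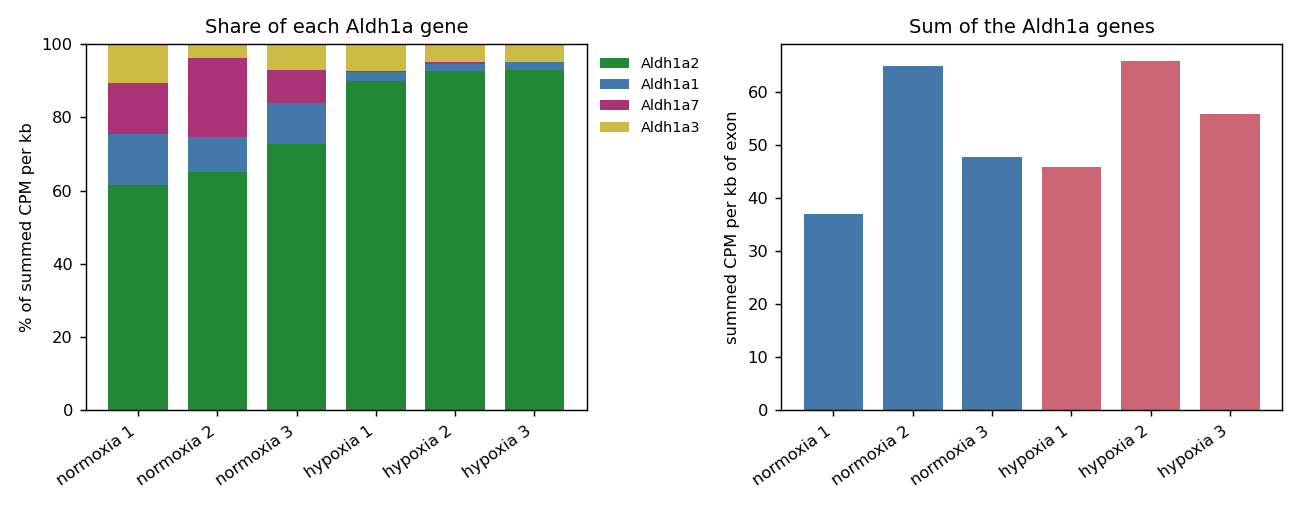
Left, stacked bars of the percentage of summed CPM per kb of exon that each Aldh1a gene supplied in each of the 6 samples; right, that sum in each sample. Aldh1a2 supplies 61.4% to 72.8% in normoxic and 89.8% to 92.9% in hypoxic samples, and the sums of the 2 conditions overlap.

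The fall of Aldh1a7 ran beside that of adipocyte markers. Of 11 such markers 10 were tested, 0 were higher and 10 were lower, beside 15.3% of all tested genes lower, and their groups did not overlap, as in 68.9% of all tested genes. The median log2 fold change of the 10 was -3.49, against -0.0040 over all tested genes. The summed level of the list was 5364 to 7155 CPM in normoxia and 3240 to 3547 CPM in hypoxia. Most of it was Lpl, a lipase that other cells also make, and without Lpl, left out after its level was seen, the sums were 847, 1868 and 802 CPM in normoxia and 112, 134 and 108 CPM in hypoxia. In this sum as in Aldh1a7, normoxia replicate 2 was the highest of the 6 samples. Fabp4, the next most abundant marker, is a lipid-binding protein of adipocytes, and Lep, the gene of leptin, was at 0 counts in all samples. Immune cell markers moved too: of 10 tested, 1 was higher and 6 lower (18.9% and 15.3% of all tested genes), and their sum was 783 to 1376 CPM in normoxia and 396 to 690 CPM in hypoxia. Most of that sum was Lyz2, at 653, 1164 and 883 CPM in normoxia and 315, 546 and 378 CPM in hypoxia. Ptprc, Csf1r and Cd14 were not called. The part of adipocyte-like or immune cells in the levels of Aldh1a7, Aldh1a1 and the other genes was not tested. Rbp4, which adipose tissue is also known to secrete, was higher in the condition where the adipocyte markers were lower. Within each condition Rbp4 was highest in replicate 2, as the adipocyte and immune cell sums were. So were Dhrs3, Aldh1a1, Aldh1a2 and Aldh1a7, whereas Aldh1a3 and Crabp2 were not highest there in both conditions.

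The 3 tested genes whose log2 CPM profile over the 6 samples, centred on its mean, was nearest to that of Aldh1a7 were Ifi27l2a, A530016L24Rik and Car3. Their root mean square differences from it were 0.27, 0.39 and 0.45 on the log2 scale. Ifi27l2a, an interferon-induced gene, had 765, 1373 and 686 counts in normoxia and 16, 37 and 17 in hypoxia. Car3, a carbonic anhydrase abundant in fat and muscle, had 1302, 5480 and 1601 counts and 25, 114 and 49. Both were highest in normoxia replicate 2, as Aldh1a7 was. Aldh1a1 had other neighbours, Rad54b, Gm10357 and Spc25, at differences of 0.05, 0.05 and 0.06. Rad54b acts in DNA repair and Spc25 in the kinetochore of dividing cells, and Spc25 fell from 223, 274 and 195 counts to 48, 67 and 65.

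**Figure D3:**
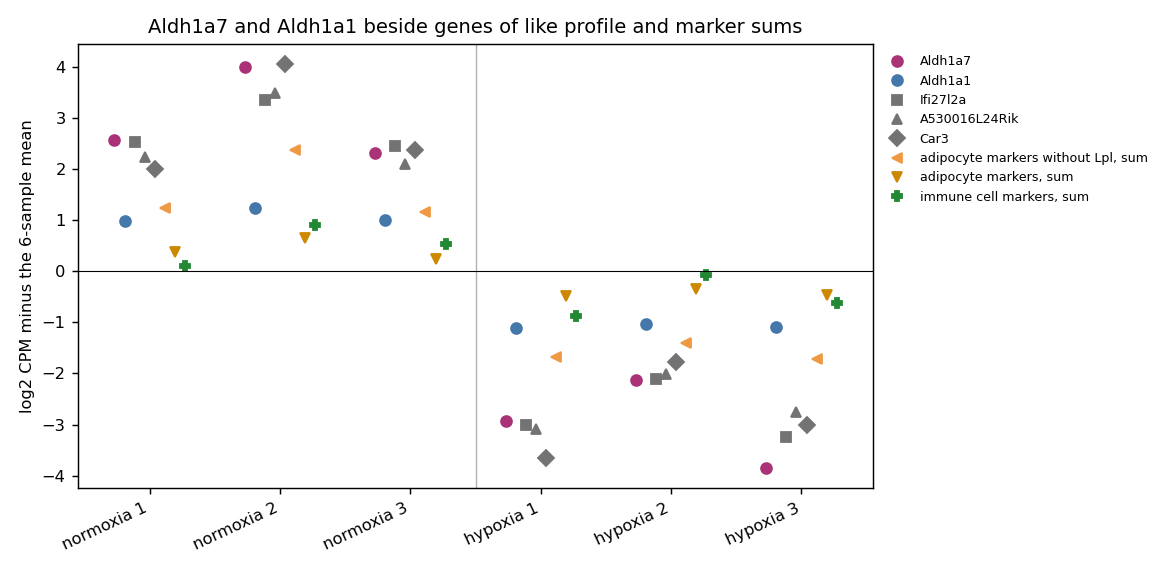
Log2 CPM minus the mean over the 6 samples, for Aldh1a7, Aldh1a1, the 3 genes nearest to Aldh1a7 and the summed adipocyte and immune cell markers; each point is 1 sample. Aldh1a7 and its neighbours are highest in normoxia replicate 2 and low in all hypoxic samples, whereas Aldh1a1 hardly varies within a condition.

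Of the raised genes, Rbp4 lay nearest to C230035I16Rik, Hk1os and Snhg14, at differences of 0.10, 0.11 and 0.13, the first and second of which had fewer than 30 counts in any sample. Dhrs3 lay nearest to Cisd3, Stk11ip and Gas5 (0.03 each). Aldh1a2 lay nearest to Gm44103, Gprin1 and Cfb, at 0.11, 0.12 and 0.13. Cfb, complement factor B, had 378, 794 and 571 counts in normoxia and 567, 1140 and 1102 in hypoxia, with the same low sample in each condition as Aldh1a2. For Aldh1a3 the nearest were Mrpl23-ps1, AC148013.1 and Jph1, and for Crabp2 Shisa9, Rtn4r and Gm18787.

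Beyond the 9 genes, 45 other genes of retinoid transport, conversion, breakdown, reception and response were looked at, of which 32 were tested, 7 were higher and 10 lower, beside 18.9% and 15.3% of all tested genes. Their median log2 fold change was -0.18. In transport, binding and ester metabolism 0 of 6 tested genes were higher and 5 were lower. Stra6l, a second receptor for Rbp4, had 118, 147 and 127 counts in normoxia and 23, 44 and 37 in hypoxia, a log2 fold change of -2.12 (SE 0.20, edgeR adjusted p = 2.13e-05). It was thus more abundant than Stra6 in both conditions by counts and moved the other way. The lipase Lipe (-1.95, SE 0.27), the fatty acid and retinoic acid carrier Fabp5 (-1.54, SE 0.30) and Crabp1 (-1.08, SE 0.26) also fell on the log2 scale, as did Dgat1, which esterifies retinol besides diglycerides. Lipe stands on the adipocyte list as well, and Lipe, Fabp5 and Dgat1 were highest in normoxia replicate 2.

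Of 13 tested dehydrogenases and reductases of retinol and retinal, 2 were higher and 4 lower, against the same 18.9% and 15.3%. Rdh10, the retinol dehydrogenase that supplies retinal for retinoic acid, rose from 672, 566 and 650 counts to 1786, 2464 and 2514, a log2 fold change of 1.63 (SE 0.09, edgeR adjusted p = 7.79e-07). Every hypoxic sample was far above the normoxic ones. Adh1, an alcohol dehydrogenase that oxidises retinol, fell from 622, 1234 and 663 counts to 75, 132 and 83 (log2 fold change -3.32, SE 0.29). Retsat (-0.91, SE 0.11), a retinol saturase, Rdh12 (-0.74, SE 0.25) and Rdh11 (-0.61, SE 0.11) were lower by less. Rdh9, 64.1% of whose exon length overlaps Rdh16f1 on the same strand, passed the test on 8 to 20 counts per sample (log2 fold change 0.85, SE 0.31, edgeR adjusted p = 0.0403) and lost its call with a replicate block (edgeR adjusted p = 0.0668), with no filter on low counts, DESeq2 or limma-voom, and also when any 1 sample other than hypoxia replicate 2 was left out. Without normoxia replicate 2 the log2 fold change was -0.46 for Rdh11 and -0.39 for Rdh12, both short of the call, and Rdh12 also lost it without hypoxia replicate 1 or 3 (edgeR adjusted p = 0.0819 and 0.0595).

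Of the Cyp26 enzymes that break down retinoic acid, only Cyp26b1 had enough counts to be tested. It rose from 125, 100 and 161 counts in normoxia to 1111, 1816 and 1721 in hypoxia, a log2 fold change of 3.37 (SE 0.17, edgeR adjusted p = 6.36e-07). This was the largest rise among the tested retinoid genes looked at here. Cyp26a1 had 0 counts in all normoxic samples and 0, 2 and 6 in hypoxia.

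Among 5 tested retinoid receptors, Rarg (log2 fold change 0.82, SE 0.06) and Rarb (0.68, SE 0.15) were higher and Rxra (-0.88, SE 0.06) was lower. All 5 were without overlap between conditions, as were 68.9% of all tested genes. Rara and Rxrb were not called, with fold changes under 1.5. Of 9 tested genes known to respond to retinoic acid, 4 were higher and 0 lower, beside 18.9% and 15.3% of all tested genes. Besides Cyp26b1 and Rarb these included Rarres2, the gene of the chemoattractant chemerin (log2 fold change 1.56, SE 0.27). Rarres2 had 1574, 3113 and 1960 counts in normoxia and 4530, 10848 and 7507 in hypoxia. Antisense genes overlap 34.1% of the exon length of Rarb (Top2b) and 33.6% of that of Rarres2 (Lrrc61), and reads of such partners cannot be told apart if strand was not used in counting. Their list had a median log2 fold change of 0.45, and Tgm2, Meis1, Meis2, Nrip1 and Rarres1 were not called. Without hypoxia replicate 1 Rarb (log2 fold change 0.58) was no longer called, and the list then had 2 genes called higher.

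**Figure D4:**
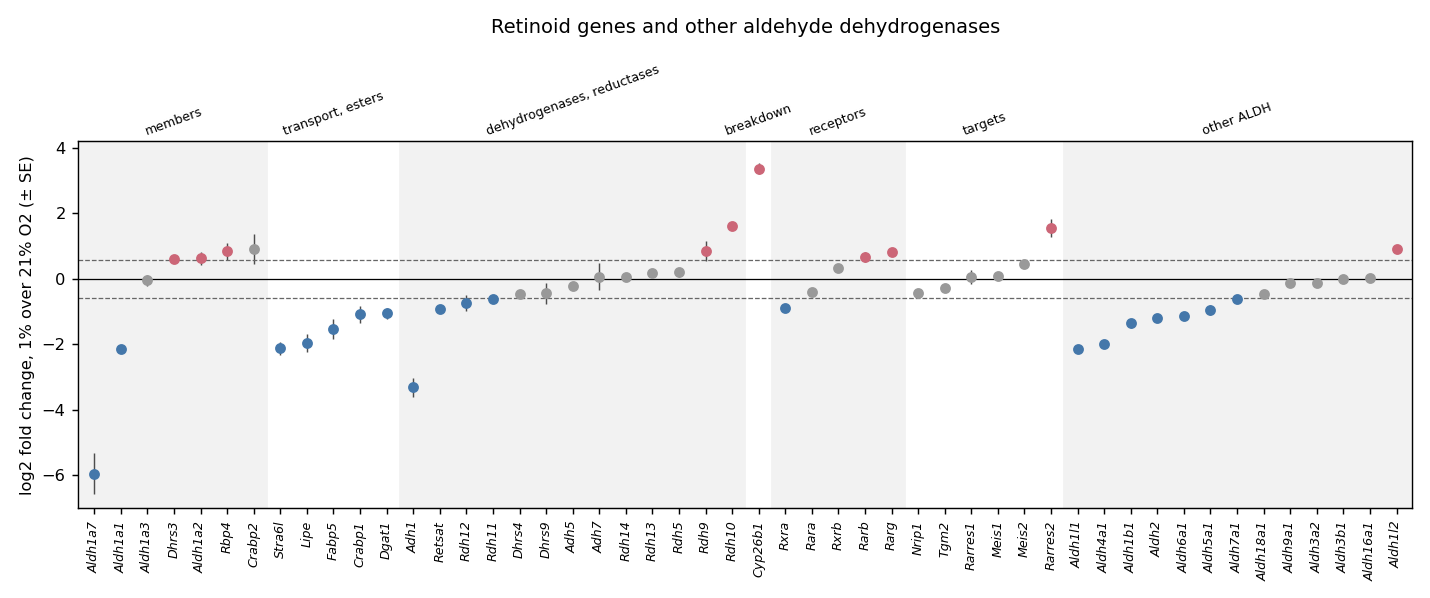
Log2 fold change of hypoxia over normoxia (points, with SE as bars) for every tested gene of the set and for tested genes of the other retinoid lists and the other aldehyde dehydrogenases, each gene shown once; red and blue points were called higher and lower and grey ones not called, and dashed lines mark a fold change of 1.5. Aldh1a7 lies lowest at -5.95 and Cyp26b1 highest at 3.37, and Lrat and Stra6 are absent because they were not tested.

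Many of the aldehyde dehydrogenases outside the Aldh1a group use other substrates, such as acetaldehyde, folate derivatives and intermediates of amino acid breakdown. Of 16 genes 13 were tested, 1 was higher and 7 were lower (18.9% and 15.3% of all tested genes were), with a median log2 fold change of -0.61. Aldh1l1, a cytosolic folate enzyme, fell from 1901, 2655 and 2028 counts to 476, 627 and 634 (log2 fold change -2.13, SE 0.11), close in size to Aldh1a1. Aldh4a1 of proline breakdown (-1.99, SE 0.10), which shares 32.5% of its exon length with Gm21969 on the same strand, Aldh1b1 (-1.36, SE 0.13) and Aldh2 (-1.18, SE 0.08), the mitochondrial acetaldehyde dehydrogenase, were lower too. The exception was Aldh1l2, the mitochondrial folate enzyme, which rose from 3557, 2619 and 2921 counts to 5684, 7041 and 7035 (log2 fold change 0.91, SE 0.10, edgeR adjusted p = 5.33e-05). Aldh1a2 and Aldh1l2 were the called risers among 17 tested genes of the superfamily, and Aldh1a1 and Aldh1a7 were among its 9 called lower.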

How the data were processed

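Per the labels and the methods of the study, poly(A) RNA was sequenced, and the authors trimmed adapters, mapped reads to GRCm38 with STAR (2.6.1b) and assigned them to genes with RSEM (1.3.1). The authors deposited expected counts for 55426 features in 6 samples, without normalization. All values were whole numbers. RSEM splits reads shared between similar genes, and the reads carry no molecular identifiers, so intervals and limits of 3 counts cover counting error only. The strand setting of the counting is not given in the sources used here. Gene names and coordinates came from GENCODE M21, and promoter windows from RefSeq (GRCm38.p6). No exon of the 9 genes overlapped an exon of another gene. Exons of some other listed genes did, which is given in the text where it exceeds 30% of the exon length. The genes of nearest profile were not checked for overlap.

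From the expected counts, edgeR (4.0.16; limma 3.58.1, R 4.3.3) was used with filterByExpr, which kept 16207 genes, TMM scaling and the quasi-likelihood F test without a block. A gene was called at a Benjamini-Hochberg adjusted p under 0.05 and a fold change beyond 1.5. The SE is the size of the log2 fold change divided by the square root of F. Profiles were compared on log2 CPM with a prior count of 2. Group values are mean ± SD. The genes and lists were chosen with earlier results of these data known. All 9 genes were named, of each list up to 4 called genes per direction with the largest change, of marker lists up to 2 of the most abundant, and the 3 genes of nearest profile. Dgat1 was named beyond this limit. Gfap, Nes, Ngfr, Msln, Upk3b, Bnc1, Lep and genes named as not called were added after their values were seen. Scripts were tested on simulated data. Alternatives were the replicate block, other scalings and filters, DESeq2 (1.42.0), limma-voom, other fold limits, each sample left out, the longest transcript as length, and Aldh1a1 and Aldh1a7 summed. Values of 2 single genes of the other retinoid lists are not reported here, though the counts of those lists include them.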

Additional observations from a re-analysis of the deposited data

How the results depend on the processing

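The falls of Aldh1a1 and Aldh1a7 kept their direction and their call under every alternative run, with log2 fold changes from -2.21 to -2.07 and from -6.51 to -5.24, and -2.77 for the summed pair. Each sample left out in turn gave log2 fold changes from 0.61 to 1.25 for Rbp4, 0.54 to 0.64 for Dhrs3, 0.41 to 0.83 for Aldh1a2 and 0.65 to 1.42 for Crabp2. The retinoid genes called higher then numbered from 0, without hypoxia replicate 2, to 3 (1 without normoxia replicate 1), and the other retinoid pathway genes called higher from 4, without hypoxia replicate 1, to 7. Dhrs3 also fell under the fold limit with upper-quartile scaling and with no filter on low counts (log2 fold change 0.58 in both), Stra6 being called in its place without the filter, and Aldh1a2 kept its fold change under DESeq2 but missed the p threshold (0.63, adjusted p = 0.0533). At a fold change of 2, 0 of the 9 genes were higher, 3 other pathway genes were higher and 6 lower, 0 other aldehyde dehydrogenases were higher, and 1929 of all tested genes were higher and 1227 lower. With no fold limit these last were 5150 and 5018. Lowering or raising the limit changes these counts by construction, and the cause of the other losses was not tested.

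The conditions share the replicate numbers 1 to 3, which the labels do not say are pairs. The deviations of samples from their group mean correlated between equal numbers at 0.142, 0.139 and 0.0378, and 6 of 6 samples correlated best with their own number, a hint from the data and not from the design. In a fit with a replicate block the log2 fold changes were 0.90 for Rbp4 (edgeR adjusted p = 0.000467), 0.60 for Dhrs3, 0.65 for Aldh1a2 (0.000119), -2.16 for Aldh1a1 and -5.96 for Aldh1a7. The same number of the 9 genes was called in each direction, Rdh9 lost its call, which left 6 other retinoid pathway genes higher, and 3072 of all tested genes were higher and 2500 lower. Depth limits Lrat, Stra6 and Crabp2, whose counts were at most 19 in a sample.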
